A study of Mus musculus with 24 samples.

Results

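The 10 genes described here carry the signals by which the gut makes and exports immunoglobulin A (IgA): the ligands *Tnfsf13* (APRIL), *Tnfsf13b* (BAFF) and *Tgfb1*, the receptors *Tnfrsf13b* (TACI), *Tnfrsf13c* (BAFF receptor), *Tnfrsf17* (BCMA) and *Ltbr*, the chemokine *Ccl28* with its receptor *Ccr10*, and the polymeric immunoglobulin receptor *Pigr*. They were chosen by symbol from the 55536 genes of the count table, and all 10 had reads. The data are 24 RNA-Seq libraries of distal small intestine, 1 per animal, from C57BL/6N mice in 4 groups of 6 with 3 males and 3 females each. CD animals were fed a control diet with 10% of energy from fat, and HFD animals a high-fat diet with 60%. CDmetf and HFDmetf animals received the same diets and, after 20 weeks of feeding, metformin in the drinking water at 50 mg/kg/day for 10 weeks. All animals were of the same inbred strain and 4 to 5 weeks old when feeding began, and each sequenced animal stood for a cage of 3. CD and HFD animals received no metformin.

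In the intestinal mucosa, B cells switch to IgA under the influence of transforming growth factor beta and of the related ligands APRIL and BAFF, which dendritic cells, stromal cells and epithelial cells release. TACI binds both ligands and is found on activated B cells and plasma cells, the BAFF receptor binds BAFF and keeps mature B cells alive, and BCMA sustains plasma cells. Signalling through the lymphotoxin beta receptor is needed to form the lymphoid tissue in which much of the switching takes place. IgA plasma cells carrying CCR10 follow CCL28, which epithelial cells secrete, and the epithelial polymeric immunoglobulin receptor carries dimeric IgA across the cell into the lumen. The comparisons ask how diet and metformin bear on these steps.

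Reads counted on genes ranged from 1829690 to 40606442 per library, so that 3 counts, the smallest level taken as seen, stood for 0.0705 to 1.71 CPM, the read count relative to library size after TMM scaling. This limit covers counting error only. The median was 10387014 in CD, 3284867 in CDmetf, 3145285 in HFD and 3966407 in HFDmetf. Under 3 M counts stood CD F2, CDmetf F1, CDmetf M2, HFD F2, HFD M2, HFD M3, HFDmetf F2, HFDmetf M2 and HFDmetf M3. These are the 9 libraries left out in some fits below, and they fall unevenly over the groups. The 10 largest genes held 85.4% of all reads in CD M3 and 9.22% to 36.6% elsewhere. Sex-linked transcripts went against the labels of HFD M2 and HFD F2, so both are called by their labels only, and the 2 pairs that hold them in comparisons with HFD may not be of the same sex. Epithelial markers summed to 5730 to 13200 CPM. Markers of the position along the intestine varied within every group. Ileal markers such as *Fabp6* and *Slc10a2* summed to 157 to 4740 CPM. Markers of the proximal small intestine such as *Apoa4* summed to 98.4 to 8260 CPM. In HFD vs. CD 3 of these 5 proximal markers were higher and 1 lower at an unadjusted p under 0.05 (4.63% of all genes). Diet and position cannot be told apart in their sum. In bulk tissue, fewer cells of a type and less RNA per cell cannot be told apart.

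*Pigr* stood far above the other genes in its level per length of exonic sequence, with a median of 524 CPM per kb over the 24 libraries (range 244 to 884). *Ltbr* followed at 43.8 (32.8 to 69.2) and *Ccl28* at 8.44 (4.31 to 15.6), and the ranges of these 3 genes did not overlap. *Tgfb1* had a median of 3.27 CPM per kb, *Tnfsf13* 2.93, *Tnfrsf13b* 1.66, *Tnfsf13b* 1.49, *Tnfrsf17* 0.795, *Ccr10* 0.736 and *Tnfrsf13c* 0.518. The ranges of these 7 genes overlapped between all neighbours in the order, and that of *Ccl28* overlapped with that of *Tgfb1*. The epithelial transport receptor was thus abundant, and the receptors of B cells and plasma cells were low. Among the 8 genes tested, *Tnfrsf13c* varied most between libraries, with an SD of 1.89 in log2 CPM, and *Ltbr* least, with an SD of 0.309. *Tnfrsf13c* lay under 3 counts in 4 libraries, *Tnfrsf17* in 9 and *Ccr10* in 2, so their lowest levels rest on few counts.

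Across libraries, *Ccl28* and *Pigr* varied together more closely than any other pair of the 8 genes tested, and *Tnfrsf13b* and *Tnfrsf13c* were the most closely related pair of receptors. The sequences around the starts of these 4 genes are therefore shown, from RefSeq on GRCm38.p6 (250 bases before and 50 bases after the start, 5′ to 3′ on the strand of the gene). Capitals mark the letters of a kappa B site, GGGNNNNNCC, on either strand, including overlapping matches. NF-kappa B is the transcription factor on which signalling from receptors of the tumour necrosis factor family and from microbial stimuli converges.
Pigr, chr1:130826434-130826733, plus strand: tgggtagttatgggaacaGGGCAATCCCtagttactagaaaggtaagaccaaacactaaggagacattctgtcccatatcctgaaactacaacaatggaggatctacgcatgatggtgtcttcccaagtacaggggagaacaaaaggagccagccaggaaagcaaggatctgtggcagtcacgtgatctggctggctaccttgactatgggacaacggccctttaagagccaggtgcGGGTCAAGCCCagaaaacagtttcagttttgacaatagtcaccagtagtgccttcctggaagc
Ccl28, chr13:119623569-119623868, plus strand: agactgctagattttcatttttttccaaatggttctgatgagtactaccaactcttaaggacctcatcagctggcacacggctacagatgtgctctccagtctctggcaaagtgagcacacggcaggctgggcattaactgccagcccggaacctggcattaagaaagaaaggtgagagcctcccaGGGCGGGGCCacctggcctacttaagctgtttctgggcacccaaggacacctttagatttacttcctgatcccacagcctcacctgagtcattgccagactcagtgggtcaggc
Tnfrsf13b, chr11:61126505-61126804, plus strand: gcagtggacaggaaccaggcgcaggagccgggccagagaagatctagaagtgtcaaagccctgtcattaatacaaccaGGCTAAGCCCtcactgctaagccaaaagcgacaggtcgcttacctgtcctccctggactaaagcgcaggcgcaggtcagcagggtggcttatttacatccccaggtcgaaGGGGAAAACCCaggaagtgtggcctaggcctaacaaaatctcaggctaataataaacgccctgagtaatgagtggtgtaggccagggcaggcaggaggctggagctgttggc
Tnfrsf13c, chr15:82224331-82224630, minus strand: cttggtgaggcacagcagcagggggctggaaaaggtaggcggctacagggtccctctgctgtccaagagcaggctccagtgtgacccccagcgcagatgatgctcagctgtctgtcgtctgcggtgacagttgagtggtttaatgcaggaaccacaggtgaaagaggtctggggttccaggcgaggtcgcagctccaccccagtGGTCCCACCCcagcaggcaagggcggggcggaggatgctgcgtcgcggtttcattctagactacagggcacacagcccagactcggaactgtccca
All 4 windows held such a match, as did 50.8% of the 32851 promoters in the table, so that the match does not set these genes apart. In *Pigr*, GGGCAATCCC began 232 bases and GGGTCAAGCC 13 bases before the start. In *Tnfrsf13b*, GGGAAAACCC began 61 bases before the start, in *Ccl28*, GGGCGGGGCC 64 bases before it and in *Tnfrsf13c*, GGTCCCACCC 46 bases before it. None of the 4 held GAAANNGAAA, the interferon-stimulated response element, which 3.44% of all promoters held, or the octamer ATTTGCAT, which 1.74% held. GAGGAA, the core of a PU.1 site, was found in 28.3% of all promoters and in none of these 4. A match is a description of the letters and not a bound site. Promoter sequences were found for 9 of the 10 genes, and *Ccr10* had no entry.

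No gene of the set passed the threshold. In the edgeR quasi-likelihood fit of all 24 libraries, with Benjamini-Hochberg adjustment over the 14076 genes tested, 0 of the 8 members that passed the filter on low counts reached an FDR under 0.05 in any of the 4 contrasts of the study. Among all genes, 0% were called in each of the diet contrasts and each of the metformin contrasts, and 0% in the tests of the interaction and of the averaged diet and metformin effects. limma-voom and DESeq2 also called 0 of the 8. The values below are therefore sizes and directions with their errors, and the FDR is given for the genes with the largest differences. At an unadjusted p under 0.05 stood 3 of the 8 in HFD vs. CD (4.63% of all genes), 1 in HFDmetf vs. CDmetf (7.87%), 2 in HFDmetf vs. HFD (6.61%) and 2 in CDmetf vs. CD (5.14%). *Tnfrsf13b* and *Tnfrsf13c* make up 7 of these 8 entries, and *Ltbr* is the other. The ranges of the groups overlapped for all 8 genes in all 4 contrasts.

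**Figure D1:**
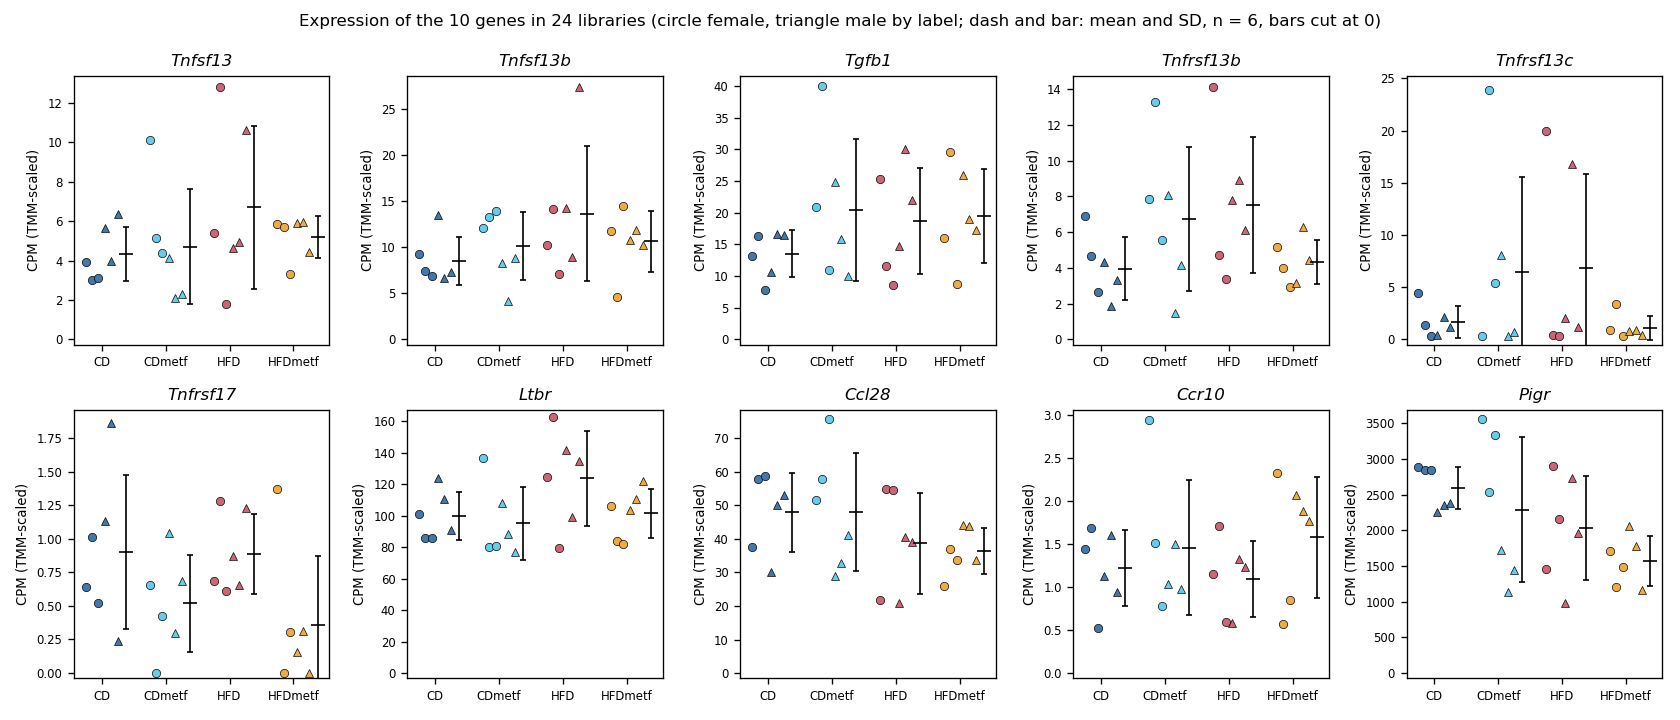
Expression of the 10 genes in each of the 24 libraries, in CPM on linear axes, with the 4 groups on the horizontal axis; circles are libraries labelled female, triangles male, and the dash with its bar is the mean and SD of 6 libraries (bars are cut at 0). *Tnfrsf13c* shows single libraries at 23.9 CPM in CDmetf and 20.0 CPM in HFD, while *Pigr* lay between 2250 and 2890 CPM in CD and between 1160 and 2060 CPM in HFDmetf.

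APRIL and BAFF support the switch to IgA without T-cell help. *Tnfsf13b* had a median of 7.35 CPM in CD (6.65 to 13.5), 10.5 in CDmetf (4.21 to 13.9), 12.1 in HFD (7.07 to 27.4) and 11.3 in HFDmetf (4.55 to 14.5). It was higher in HFD than in CD in 6 of 6 pairs of the same labelled sex and replicate number (4 of 4 without HFD M2 and HFD F2), with a logFC of 0.62 (SE = 0.313, FDR = 1.00 by edgeR). This value was 0.31 without HFD M3, 0.26 with limma-voom and 0.13 without the 9 libraries under 3 M counts. In HFDmetf vs. HFD it was higher in 3 of 6 pairs, with a logFC of −0.27 (SE = 0.312) that turned to 0.19 with limma-voom, 0.31 without those 9 libraries and 0.038 without HFD M3. The highest *Tnfsf13b* value, 27.4 CPM in HFD M3, was in the library with the highest sum of proximal markers, 8260 CPM. Over the 24 libraries *Tnfsf13b* and these markers had a Pearson r of 0.851 and a Spearman rho of 0.761 (r = 0.741 without the 2 libraries farthest from the median of the markers). These points share library depth. The proximal markers themselves had a median logFC of 1.99 in HFD vs. CD (4 of 5 higher), so diet and position cannot be told apart in them. The part of the position along the intestine in the diet difference was not tested.

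*Tnfsf13* had a median of 3.96 CPM in CD (3.02 to 6.38), 4.27 in CDmetf (2.10 to 10.1), 5.16 in HFD (1.79 to 12.8) and 5.77 in HFDmetf (3.32 to 5.96). All groups overlapped, and the logFC in HFD vs. CD was 0.51 (SE = 0.405). Its direction depended on the fit: the logFC was −0.061 with limma-voom and −0.36 without the 9 libraries under 3 M counts. The counts of *Tnfsf13* are uncertain because 60.0% of its exonic bases (chr11:69682846-69685784) are shared with *Tnfsfm13*, a read-through gene on the same strand, and 13.5% with the antisense transcript *Tnfsf13os*. The log2 ratio of *Tnfsf13b* to *Tnfsf13* within a library was 0.97 ± 0.43 in CD (SD, n = 6), 1.19 ± 0.60 in CDmetf, 1.13 ± 0.65 in HFD and 0.97 ± 0.77 in HFDmetf, and it differed by less than this spread in each contrast.

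*Tgfb1*, the cytokine that directs B cells to IgA, had a median of 14.8 CPM in CD (7.87 to 16.7), 18.4 in CDmetf (10.0 to 40), 18.4 in HFD (8.56 to 30) and 18.2 in HFDmetf (8.81 to 29.6). The highest CD library lay below the median of each other group. The logFC was 0.45 in HFD vs. CD (SE = 0.295, higher in 5 of 6 pairs) and 0.52 in CDmetf vs. CD (SE = 0.294, higher in 4 of 6 pairs). The first was 0.29 without HFD M3, and the second 0.25 without CDmetf F2. With the B-cell marker score as a term of the model they were 0.22 and 0.23. In HFDmetf vs. HFD it was 0.0031 (SE = 0.298). *Tgfb1* has many sources, and its level went with T-cell markers (r = 0.701, rho = 0.644, n = 24; r = 0.546 without the 2 farthest libraries), with B-cell markers (r = 0.587, rho = 0.577, and 0.422 without the 2 farthest) and with myeloid markers (r = 0.518, rho = 0.542, and 0.549 without the 2 farthest).

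The 2 receptors of mature B cells, TACI and the BAFF receptor, had the largest differences of the set. *Tnfrsf13b* had a median of 3.81 CPM in CD (1.86 to 6.90), 6.71 in CDmetf (1.50 to 13.3), 6.97 in HFD (3.36 to 14.1) and 4.2 in HFDmetf (2.95 to 6.28). HFD libraries were higher than the CD libraries of the same labelled sex and number in 6 of 6 pairs, and HFDmetf libraries were higher than HFD libraries in 0 of 6 (4 of 4 and 0 of 4 without HFD M2 and HFD F2). The logFC was 0.91 in HFD vs. CD (SE = 0.350, FDR = 1.00 by edgeR) and −0.77 in HFDmetf vs. HFD (SE = 0.361, FDR = 0.640). On the control diet the metformin difference had the opposite sign, 0.77 in CDmetf vs. CD (SE = 0.347, FDR = 0.940, higher in 5 of 6 pairs), and was 0.48 without CDmetf F2. These comparisons share the CD and the HFD libraries.

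The interaction, which tests whether the metformin difference was the same on both diets, was −1.54 for *Tnfrsf13b* (SE = 0.498, FDR = 0.709 by edgeR) and −4.79 for *Tnfrsf13c* (SE = 1.31, FDR = 0.603). These were the 2 members of 8 with an unadjusted p under 0.05 in the interaction, against 6.03% of all genes, and neither passed the threshold. With the B-cell marker score as a term of the model the interaction of *Tnfrsf13b* was −0.66 (SE = 0.441, FDR = 0.812) and that of *Tnfrsf13c* 0.87 (SE = 0.604, FDR = 0.815). The other 6 genes had interaction values between −0.52 (*Tnfsf13b*, SE = 0.441) and 0.025 (*Ccl28*, SE = 0.287).

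*Tnfrsf13c* had the same signs of the logFC as *Tnfrsf13b* in the 4 contrasts, with larger values and a wider spread, while the order of its group medians was another. Its median was 1.26 CPM in CD (0.367 to 4.49), 3.05 in CDmetf (0.301 to 23.9), 1.63 in HFD (0.368 to 20.0) and 0.827 in HFDmetf (0.339 to 3.41). A few libraries had the highest levels: CDmetf F2 (23.9 CPM), HFD F1 (20.0 CPM), the library labelled HFD M2 (16.8 CPM) and CDmetf M1 (8.05 CPM). All libraries of HFDmetf were at or below 3.41 CPM. The logFC was 1.93 in HFD vs. CD (SE = 0.891), 2.01 in CDmetf vs. CD (SE = 0.885), −2.77 in HFDmetf vs. HFD (SE = 0.987) and −2.85 in HFDmetf vs. CDmetf (SE = 0.971), with FDR values of 0.582 to 1.00 by edgeR. In this order of contrasts, the first group was higher in 5, 3, 1 and 2 of 6 pairs of the same labelled sex and number. Without HFD M2 and HFD F2 it was higher in 4 of 4 pairs in HFD vs. CD and 0 of 4 in HFDmetf vs. HFD. Without HFD F1 alone, the logFC was 0.98 in HFD vs. CD and −1.91 in HFDmetf vs. HFD. Without CDmetf F3 alone, it was 1.53 in CDmetf vs. CD.

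**Figure D2:**
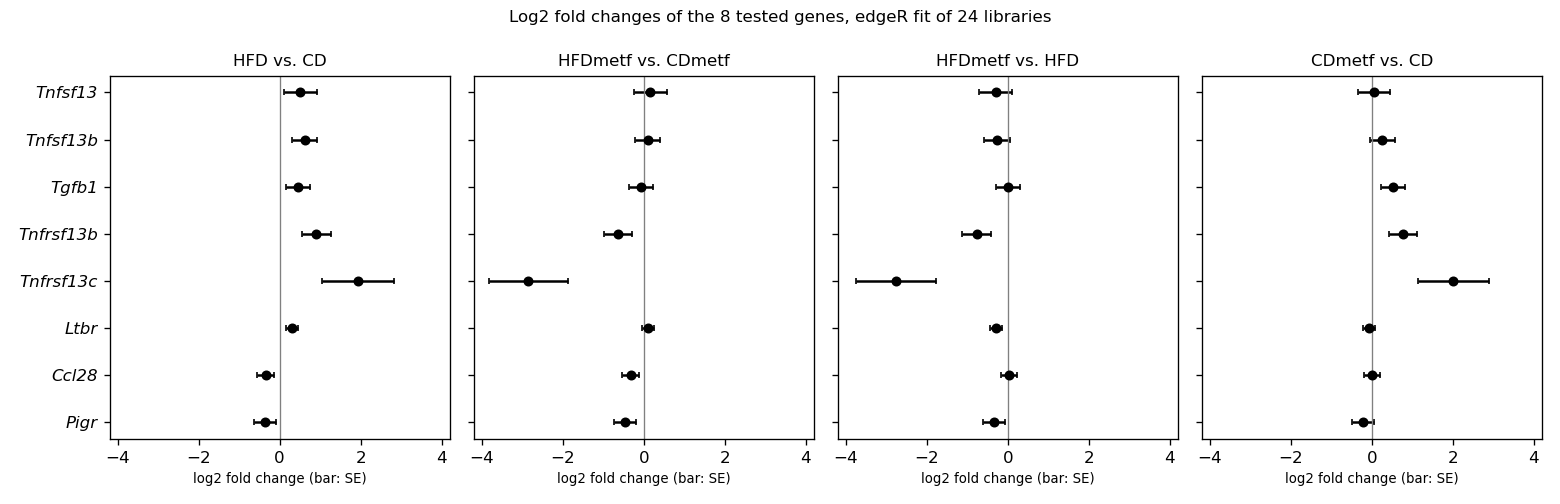
Log2 fold changes of the 8 tested genes (vertical axis) in the 4 contrasts of the study, from the edgeR fit of 24 libraries; points are estimates and bars are 1 SE. *Tnfrsf13c* lies farthest from 0 in every contrast, at 1.93, −2.85, −2.77 and 2.01 from left to right, and its bars are the widest.

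The libraries with the most *Tnfrsf13c* were those with the most B-cell markers. The sum of the 10 other B-cell markers (among them *Ms4a1*, *Cd79b* and *Cr2*) was 426 CPM in CDmetf F2, 332 in HFD F1, 215 in the library labelled HFD M2, 154 in CDmetf M1, 122 in CDmetf F3 and 76.6 in CD F1, and between 7.87 and 41.4 in the other 18 libraries. The B-cell marker score was the mean standardized log2 CPM of these 10 markers. Over all libraries *Tnfrsf13c* and this score had an r of 0.943 and a rho of 0.869 (n = 24; r = 0.906 without the 2 farthest libraries). For *Tnfrsf13b* the values were 0.756, 0.683 and 0.609, with *Tnfrsf13c* included in the score. The genes most like *Tnfrsf13c* in pattern were *Cd22* (r = 0.959), *Cr2* (0.940) and *H2-DMb2* (0.931), and those most like *Tnfrsf13b* were *Siglecg* (0.869), *Map4k1* (0.844) and *Ciita* (0.842), over 24 libraries.

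*Tnfrsf13c* is itself a B-cell marker that follows the B-cell marker score (r = 0.943). The loss of its differences with this score as a term of the model was therefore largely fixed in advance. Its logFC was then −0.48 in HFD vs. CD (SE = 0.345) and 0.39 in HFDmetf vs. CDmetf (SE = 0.405). It was 0.13 in HFDmetf vs. HFD (SE = 0.369) and −0.74 in CDmetf vs. CD (SE = 0.368). The FDR values were 0.855 to 0.921, so that the turned signs are not read as a reversal. With the same term the logFC of *Tnfrsf13b* kept its sign and was smaller, 0.51 in HFD vs. CD, −0.37 in HFDmetf vs. HFD and 0.28 in CDmetf vs. CD. *Tnfrsf13b* also goes with the B-cell markers (r = 0.756, *Tnfrsf13c* among them), so the smaller values were in part fixed in advance. The kept sign is not read as a difference apart from B cells. All 11 B-cell markers, *Tnfrsf13c* included, had a positive logFC in HFD vs. CD (median 1.84) and in CDmetf vs. CD (median 2.05) and a negative logFC in HFDmetf vs. HFD (median −2.42), beside medians over all genes of −0.0047, −0.0023 and 0.026. None of them had an FDR under 0.05. At an unadjusted p under 0.05 stood 9, 11 and 10 of the 11, against 4.63%, 5.14% and 6.61% of all genes. These markers were high in the same few libraries, so they are not 11 separate results. The T-cell markers had the same signs, with medians of 0.67, 0.95 and −0.95 over the 5 that were tested. Markers of other tissues went different ways. The medians were −2.85, −2.01 and 3.00 for the 4 pancreatic acinar markers tested. For the 4 adipocyte markers they were −1.56, −1.89 and 1.54, and for the 5 smooth muscle markers tested −0.322, −0.0145 and 0.441. The 8 myeloid markers had medians of 0.33, 0.35 and 0.35, and the 8 epithelial markers 0.019, 0.036 and −0.24. Acinar markers summed to 25.4 CPM in CD F1, 26.4 in CD M1, 22.4 in HFDmetf F1 and 18.8 in HFDmetf M2. In the other libraries they summed to 1.23 to 6.85 CPM, so their medians rest on a few libraries. Adipocyte markers summed to 9.35 to 289 CPM. The 7 markers of follicle-associated epithelium and follicle stroma had their highest sums in 5 of the libraries named above, with 91.5 CPM in CDmetf F2, 70.2 in HFD F1, 52 in the library labelled HFD M2, 47.8 in CDmetf M1 and 44 in CDmetf F3, beside 10.7 to 34.3 in the other libraries. The part of these tissues in the differences of the receptors was not tested. *Cxcl13*, a chemokine of B-cell follicles, had a logFC of 1.97 in CDmetf vs. CD (SE = 0.707, FDR = 0.940). Of the 3 follicle markers tested, 2 had a positive logFC in that contrast and 1 a negative one. At an unadjusted p under 0.05 stood 1 of the 3, against 5.14% of all genes.

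**Figure D3:**
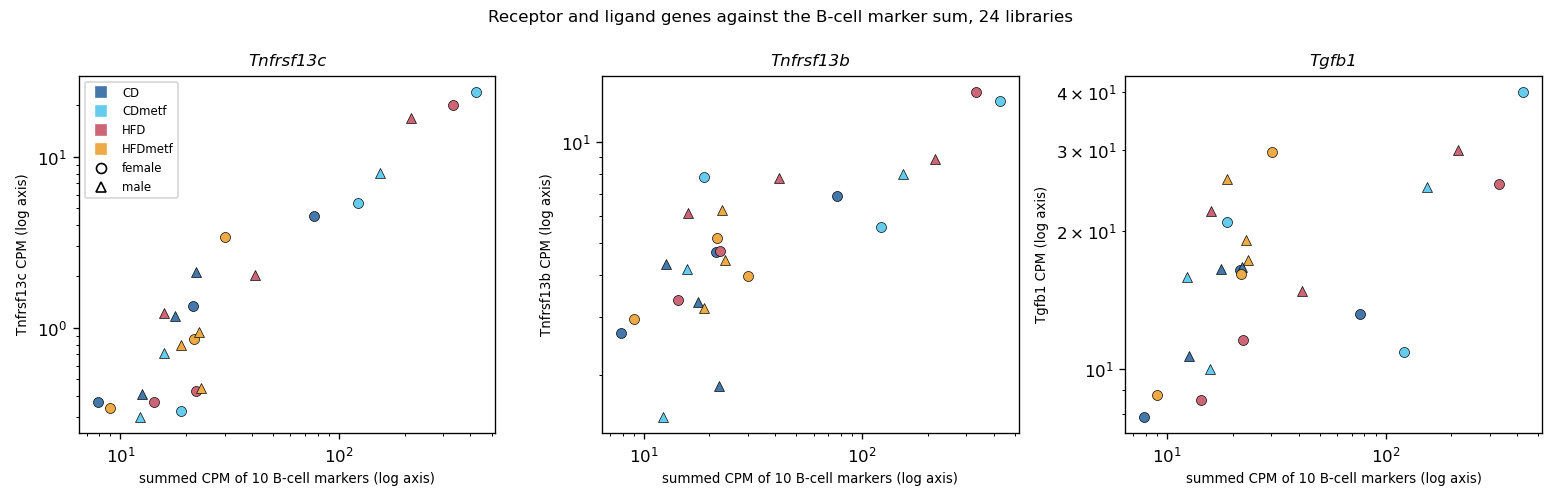
*Tnfrsf13c*, *Tnfrsf13b* and *Tgfb1* (CPM, vertical axes) against the summed CPM of 10 B-cell markers without *Tnfrsf13c* (horizontal axes), all on log axes, with 1 point per library, colour for the group and shape for the labelled sex. *Tnfrsf13c* climbs with the markers over the whole range, *Tnfrsf13b* more loosely and *Tgfb1* least. Against the marker score, the mean standardized log2 CPM of the markers and not the plotted sum, r was 0.943, 0.756 and 0.587. The score for *Tnfrsf13b* and *Tgfb1* included *Tnfrsf13c*.

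The log2 ratio of *Tnfrsf13b* to *Tnfrsf13c* was 1.59 ± 1.29 in CD (SD, n = 6), 1.27 ± 1.85 in CDmetf, 1.45 ± 1.74 in HFD and 2.17 ± 1.04 in HFDmetf. It differed most in HFDmetf vs. CDmetf, by 0.90 (exact permutation test, two-sided, p = 0.320, adjusted p = 0.811 over the 16 ratio tests), which is less than the spread within either group.

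*Tnfrsf17*, the receptor that keeps long-lived plasma cells alive, was too low for the model, with a median of 3 counts per library and 0 counts in 3 of 24 libraries, and was left out by the filter. Its median was 0.824 CPM in CD (0.236 to 1.86), 0.540 in CDmetf (0 to 1.04), 0.775 in HFD (0.613 to 1.28) and 0.232 in HFDmetf (0 to 1.37). In 9 libraries it lay under 3 counts, so that a difference of this size was at the limit of the depth. The log2 ratio of *Tnfrsf17* to *Jchain*, the joining chain of dimeric IgA, was −8.54 ± 0.41 in CD (SD, n = 6), −9.54 ± 1.16 in CDmetf, −8.87 ± 0.46 in HFD and −9.93 ± 0.90 in HFDmetf. The metformin groups had lower means, by −1.06 in HFDmetf vs. HFD (exact permutation test, two-sided, p = 0.0346) and by −0.999 in CDmetf vs. CD (p = 0.0628, exact test), with lower values in 5 of 6 and 6 of 6 pairs. *Tnfrsf17* had 0 or 1 count in 4 of the 6 HFDmetf libraries and in 2 of the 6 CDmetf libraries, so the pseudocount weighs on these ratios. In HFDmetf vs. HFD the difference was −0.72 with a pseudocount of 1 (exact permutation p = 0.121) and −1.86 with 0.1 (exact p = 0.0173), and in CDmetf vs. CD it was −0.83 and −1.39, and −0.63 without CDmetf F2. Neither passed after adjustment over the 16 ratio tests (adjusted p = 0.502 for both, permutation tests). *Jchain* itself had a logFC of −0.26 in HFDmetf vs. HFD (SE = 0.311) and 0.33 in CDmetf vs. CD (SE = 0.316).

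**Figure D4:**
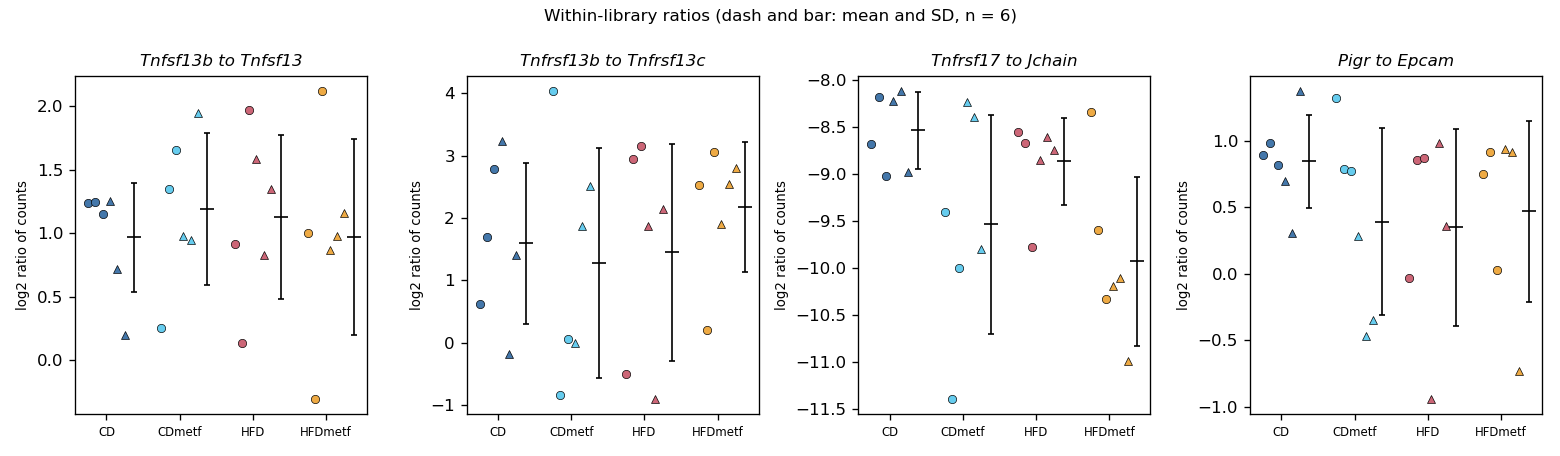
Log2 ratios of counts within each library (vertical axes) for 4 pairs of genes in the 4 groups; circles are libraries labelled female, triangles male, and the dash with its bar is the mean and SD of 6 libraries. The *Tnfrsf17* to *Jchain* ratio averaged −8.54 in CD and −8.87 in HFD, and −9.54 and −9.93 in the metformin groups, with wide overlap.

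*Ltbr*, the lymphotoxin beta receptor of stromal and epithelial cells, was the steadiest of the set. Its median was 96.2 CPM in CD (86.1 to 124), 84.6 in CDmetf (77.1 to 137), 130 in HFD (79.5 to 163) and 105 in HFDmetf (81.8 to 122). The logFC was 0.31 in HFD vs. CD (SE = 0.148, FDR = 1.00 by edgeR, higher in 4 of 6 pairs) and −0.28 in HFDmetf vs. HFD (SE = 0.149, FDR = 0.640, higher in 2 of 6). Without HFD F2 these values were 0.17 and −0.16. The genes most like it in pattern were *Tor2a* (r = 0.952), *Vasp* (0.902) and *Tmem253* (0.891). *Ltb*, a subunit of its ligand that lymphocytes make, had a logFC of 1.53 in HFD vs. CD (SE = 0.679) and −1.53 in HFDmetf vs. HFD (SE = 0.717), with the wide error of the other lymphocyte genes.

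*Ccl28* and *Pigr*, the epithelial end of the pathway, had negative logFC values on the high-fat diet in both diet contrasts, though neither passed the test. *Ccl28* had a median of 51.6 CPM in CD (30 to 58.7), 46.4 in CDmetf (28.8 to 75.8), 39.9 in HFD (20.9 to 54.8) and 35.3 in HFDmetf (26.1 to 44.2). It was higher in HFD than in CD in 0 of 6 pairs of the same labelled sex and number (0 of 4 without HFD M2 and HFD F2), with a logFC of −0.35 (SE = 0.201, and −0.22 without HFD F1), and had a logFC of −0.32 in HFDmetf vs. CDmetf (SE = 0.204, −0.20 without HFDmetf F3 and −0.56 without HFDmetf M1). Averaged over metformin, 12 libraries against 12, the diet difference was −0.33 (SE = 0.143, FDR = 0.774 by edgeR). The metformin difference was close to 0 on both diets, 0.030 in HFDmetf vs. HFD (SE = 0.206, but −0.20 without HFDmetf M1) and 0.0057 in CDmetf vs. CD (SE = 0.200).

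*Pigr* had a median of 2610 CPM in CD (2250 to 2890), 2120 in CDmetf (1130 to 3560), 2060 in HFD (982 to 2900) and 1590 in HFDmetf (1160 to 2060). CD libraries lay close together, and the other groups spread to lower values. The logFC was −0.35 in HFD vs. CD (SE = 0.272), −0.47 in HFDmetf vs. CDmetf (SE = 0.274), −0.34 in HFDmetf vs. HFD (SE = 0.274) and −0.23 in CDmetf vs. CD (SE = 0.272). All 4 values were negative, and in each contrast the first group was higher in 2 of 6 pairs of the same labelled sex and number. Without HFD M2 and HFD F2 it was higher in 0 of 4 pairs in HFD vs. CD and 2 of 4 in HFDmetf vs. HFD. The value in HFD vs. CD rested on the choice of libraries: it was −0.72 without HFD M2 and HFD F2 (SE = 0.298, FDR = 1.00), −0.84 without the 9 libraries under 3 M counts (SE = 0.325, FDR = 0.876) and −0.18 without HFD M1. HFDmetf vs. HFD turned to 0.26 without those 9 libraries, and CDmetf vs. CD was −0.083 without CDmetf M2. The averaged diet difference was −0.41 (SE = 0.193, FDR = 0.822 by edgeR). *Ccl28* and *Pigr* were the 2 members of 8 with an unadjusted p under 0.05 in the averaged diet test (5.96% of all genes), and 0 of 8 had one in the averaged metformin test (5.04%). With HFD M2 and HFD F2 left out, the averaged diet difference of *Pigr* was −0.59 (FDR = 0.539), and its difference in HFDmetf vs. HFD was −0.00085.

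*Pigr* values are also given by labelled sex within the control-diet groups. In CD the 3 females lay between 2840 and 2890 CPM and the 3 males between 2250 and 2380, and in CDmetf the females lay between 2530 and 3560 and the males between 1130 and 1720. In neither group did the sexes overlap, but 3 against 3 cannot reach an exact p below 0.10. The share of all genes without overlap was not counted, so a lack of overlap is not read as a sex difference. *Tnfsf13* also had no overlap in CD (females 3.02 to 3.93 CPM, males 3.99 to 6.38). In CDmetf it had none with the opposite order (4.39 to 10.1 against 2.1 to 4.15). The same held in CDmetf for *Tnfsf13b* (12.1 to 13.9 against 4.21 to 8.85) and *Ccl28* (51.6 to 75.8 against 28.8 to 41.3). In HFDmetf the order of *Pigr* was turned, with a mean of 1470 CPM in females and 1670 in males. Over all libraries the logFC of *Pigr* in males vs. females was −0.36 (SE = 0.194, FDR = 0.685 by edgeR). Of the 8 members, 0 had an unadjusted p under 0.05 for the sex term, against 7.27% of all genes, and 0.0071% of all genes had an FDR under 0.05. Without HFD M2 and HFD F2, 2 of the 8 members had an unadjusted p under 0.05, against 1014 of the 15044 genes tested. They were *Pigr* with a logFC of −0.40 (SE = 0.189, FDR = 0.734) and *Tnfrsf13c* with −1.52 (SE = 0.647, FDR = 0.708).

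The log2 ratio of *Pigr* to *Epcam*, an adhesion molecule of all intestinal epithelial cells, was 0.85 ± 0.35 in CD (SD, n = 6), 0.39 ± 0.71 in CDmetf, 0.35 ± 0.74 in HFD and 0.47 ± 0.68 in HFDmetf. The difference was −0.50 in HFD vs. CD (exact permutation test, two-sided, p = 0.184, adjusted p = 0.707) and −0.46 in CDmetf vs. CD (exact p = 0.171, adjusted p = 0.707). It was 0.078 in HFDmetf vs. CDmetf and 0.12 in HFDmetf vs. HFD, less than the spread within either group. The value in HFD vs. CD was −0.24 without HFD M1, and that in CDmetf vs. CD −0.28 without CDmetf M2. The 8 epithelial markers had a median logFC of 0.019 in HFD vs. CD (6 of 8 higher) and 0.036 in CDmetf vs. CD (5 of 8 higher), but −0.21 in HFDmetf vs. CDmetf (8 of 8 lower) and −0.24 in HFDmetf vs. HFD (7 of 8 lower). *Epcam* itself had −0.48 in HFDmetf vs. CDmetf (SE = 0.219, FDR = 0.627), beside −0.47 for *Pigr* and −0.32 for *Ccl28*.

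*Pigr* and *Ccl28* had an r of 0.738 over the 24 libraries. The genes most like *Pigr* were *Ceacam10* (r = 0.750), *Zc3h12a* (0.748) and *Nfkbiz* (0.741), and those most like *Ccl28* were *Smad1* (0.768), *Wbp4* (0.748) and *Kiz* (0.747).

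**Figure D5:**
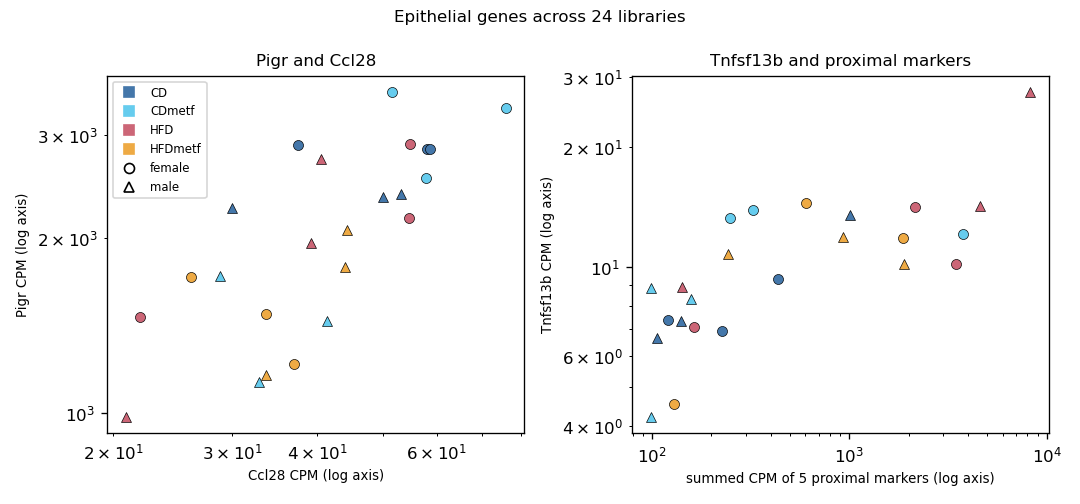
Left, *Pigr* against *Ccl28*; right, *Tnfsf13b* against the summed CPM of 5 markers of the proximal small intestine; all axes are CPM on log scales, with 1 point per library, colour for the group and shape for the labelled sex. *Pigr* and *Ccl28* are high and low together (r = 0.738), and *Tnfsf13b* is highest, at 27.4 CPM, in the library with the highest proximal marker sum, 8260 CPM.

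*Ccr10*, the receptor of IgA plasma cells for CCL28, had a median of 6 counts per library and was left out by the filter. Its median was 1.29 CPM in CD (0.525 to 1.68), 1.27 in CDmetf (0.783 to 2.94), 1.19 in HFD (0.579 to 1.71) and 1.83 in HFDmetf (0.569 to 2.32), and all groups overlapped. Fitted without the filter, the logFC was 0.59 in HFDmetf vs. HFD (SE = 0.380 by edgeR) and −0.12 in HFD vs. CD (SE = 0.385). The plasma cell markers as a list, among them *Igha*, were near the median of all genes in HFDmetf vs. HFD, with a median logFC of −0.085, 4 of 8 higher and 0 of 8 with an unadjusted p under 0.05. In CDmetf vs. CD 8 of 8 were higher (median 0.25, 1 of 8 at that level against 5.14% of all genes), in HFD vs. CD 6 of 8 (median 0.22, 0 at that level), and in HFDmetf vs. CDmetf 7 of 8 were lower (median −0.11, 0 at that level).

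The other genes of the pathway were counted by list. Of 18 genes for B-cell help and switch cytokines, 9 were tested and 0 were called in any contrast. In HFDmetf vs. HFD 4 of the 9 had a positive logFC and 5 a negative one (median −0.071, 1 at an unadjusted p under 0.05, against 6.61% of all genes). In HFDmetf vs. CDmetf 7 of 9 had a negative one (median −0.12, 1 at that level, against 7.87%). A positive logFC was found for 6 of 9 in HFD vs. CD and for 7 of 9 in CDmetf vs. CD, with 0 at that level. *Aldh1a2*, which makes the retinoic acid that favours IgA, had a logFC of 0.54 in HFDmetf vs. HFD (SE = 0.198, FDR = 0.640 by edgeR), and *Nos2*, whose product nitric oxide supports IgA switching, −1.43 in HFDmetf vs. CDmetf (SE = 0.569, FDR = 0.599). Of 10 genes of BAFF, APRIL and lymphotoxin signalling, 8 were tested. The logFC was positive for 7 in HFD vs. CD (1 at an unadjusted p under 0.05, against 4.63% of all genes) and for 6 in CDmetf vs. CD (1, against 5.14%). It was negative for 7 in HFDmetf vs. HFD (2, against 6.61%) and for 6 in HFDmetf vs. CDmetf (2, against 7.87%). *Nfkb2*, the subunit processed in the pathway below these receptors, had a logFC of −0.50 in HFDmetf vs. CDmetf (SE = 0.183, FDR = 0.599). *Birc3*, a ubiquitin ligase of the same pathway, had −0.46 in HFDmetf vs. HFD (SE = 0.193, FDR = 0.640).

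The 8 other homing genes were all tested, with 0 called. In HFD vs. CD all 8 had a positive logFC (median 0.49, 2 at an unadjusted p under 0.05 against 4.63% of all genes), and in CDmetf vs. CD 6 of 8 (median 0.53, 4 against 5.14%). In HFDmetf vs. HFD 7 of 8 had a negative one (median −0.31, 1 against 6.61%), and in HFDmetf vs. CDmetf 5 of 8 (median −0.37, 1 against 7.87%). The medians over all genes were between −0.0047 and 0.033. *Madcam1*, the vascular address molecule of the gut, had a logFC of 1.13 in HFD vs. CD (SE = 0.475) and 1.31 in CDmetf vs. CD (SE = 0.467). *Cxcr4* had 0.98 in HFD vs. CD (SE = 0.433) and −0.99 in HFDmetf vs. HFD (SE = 0.445). *Ccr9* and its ligand *Ccl25*, which bring plasma cells to the small intestine, had −0.29 (SE = 0.233) and −0.32 (SE = 0.188) in HFDmetf vs. HFD. Both *Madcam1* and *Cxcr4* had the signs of the B-cell markers in these contrasts, and the part of those markers was not tested for them.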

How the data were processed

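One RNA-Seq library per animal was measured in 24 mice, and groups, sexes and replicate numbers were taken from the sample labels. The authors deposited raw counts per gene: after rRNA depletion and sequencing, Trimmomatic 0.39 trimmed the reads (window 5, quality 25, shortest read 30 bp) and STAR 2.5.3a mapped them to GRCm38 and counted them. Which annotation and strand the counting used is not given in the sources used here, so genes that overlap others, also in antisense, have uncertain counts.

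From these counts, edgeR 4.0.16 (R 4.3.3) kept 14076 of 55536 genes with filterByExpr, scaled libraries by TMM and fitted a quasi-likelihood model with group, sex and replicate number (17 residual degrees of freedom; Benjamini-Hochberg adjustment, threshold 0.05). SE was taken as the logFC over the square root of F. A prior count of 1 was used for log2 CPM. Correlations with markers used a score, the mean standardized log2 CPM of the tested genes of a list without the gene compared. The B-cell score used as a term of the model left out *Tnfrsf13c*. Ratios used a pseudocount of 0.5 and exact permutation tests over 924 assignments (SciPy 1.17.1), whose smallest p is 0.00216. P-values set the differences against the spread between libraries, with 1 library per animal. This spread holds the differences between animals, tissue pieces and libraries together.

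The replicate number was the block because the study describes blocks; that the numbers are these blocks is not stated. Deviations from group means correlated at 0.168 on average between libraries of the same sex and number (36 pairs) and −0.0642 between different numbers (144 pairs), with some same-numbered pairs as low as −0.437.

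The genes, lists and tests were chosen with earlier results of these data known. All 10 genes are named whatever their values; from each list at most 4 genes with the smallest p in a contrast, and for each tested gene the 3 most similar in log2 CPM. *Jchain*, *Igha* and *Fabp6* were named from the lists for their role. The scripts were tested on simulated data. Alternatives were limma-voom 3.58.1, DESeq2 1.42.0, RLE scaling, no filter, no block, no sex term, a B-cell score as a term, subsets of libraries, other pseudocounts and leaving out each animal.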

Additional observations from a re-analysis of the deposited data

Results flagged for a closer look

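Of 56 sets of 6 values examined, 6 had a library far from the other 5. The rule flags about 1 in 20 sets of normally distributed values. CPM values need not be so distributed, and the sets share libraries, so the 6 flags cannot be read against that rate. *Tnfrsf13c* was 23.9 CPM in CDmetf F2 (others 0.301 to 8.05), the library with the highest B-cell marker sum, and 3.41 CPM in HFDmetf F2 (others 0.339 to 0.942), which had 36.6% of its counts on 10 genes. *Tnfsf13b* was 27.4 CPM in HFD M3 (others 7.07 to 14.2), the library with the highest proximal marker sum. *Tnfrsf17* was 1.37 CPM in HFDmetf F1 (others 0 to 0.314), and the log2 ratio of *Tnfrsf17* to *Jchain* was −9.78 in HFD F3 (others −8.85 to −8.55). *Ccr10* was 2.94 CPM in CDmetf F1 (others 0.783 to 1.51). The part of cell makeup, intestinal position and depth in these values was not tested.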

How the results depend on the processing

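No member reached an FDR under 0.05 in any contrast under any alternative run, including each library left out in turn, where the count of members called was 0 throughout. Without the replicate block, 0 members were called, as with it. The ratios were also tested in 6 pairs of the same labelled sex and number. The smallest p of this exact permutation test of signs is 0.03125. After adjustment a ratio could pass only if many of the 16 did, so its unchanged calls decide nothing. For *Tnfrsf17* to *Jchain* in HFDmetf vs. HFD the exact permutation p was 0.0625 paired and 0.0346 unpaired. In CDmetf vs. CD the exact permutation p was 0.03125 paired and 0.0628 unpaired. Over all genes, where 0 were called in the main fit, DESeq2 called 13 in HFD vs. CD, 4 in CDmetf vs. CD, 4 in the interaction and 48 in the averaged diet test, and limma-voom 4 in the last; for males vs. females DESeq2 called 22 against 1. Over the other settings the counts were 0 to 1 in HFD vs. CD, 0 to 6 in the averaged diet test and 1 to 15 for males vs. females. None of these was a member. With the B-cell score as a term, *Tnfrsf13c*, which follows this score, had a logFC of −0.48 in HFD vs. CD and 0.39 in HFDmetf vs. CDmetf. It had 0.13 in HFDmetf vs. HFD, −0.74 in CDmetf vs. CD, 0.87 in the interaction and 0.29 in males vs. females. The *Tgfb1* interaction was 0.0094 with this term. Without the 9 libraries under 3 M counts, *Tnfsf13* turned to −0.36 in HFD vs. CD and −0.13 in the averaged diet test, *Tnfsf13b* to 0.31 in HFDmetf vs. HFD, and *Pigr* to 0.26 in HFDmetf vs. HFD and 0.0064 in the averaged metformin test. limma-voom gave −0.061 for *Tnfsf13* in HFD vs. CD and 0.19 for *Tnfsf13b* in HFDmetf vs. HFD. The *Tnfsf13b* to *Tnfsf13* log2 ratio moved to 0.488 in HFD vs. CD with HFD M2 and HFD F2 left out. The causes of these changes were not tested. Depth limits *Tnfrsf17*, *Tnfrsf13c* and *Ccr10*, which lay under 3 counts in 9, 4 and 2 libraries.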
